A study of Homo sapiens with 12 samples.

Results

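The 67 genes described here encode proteins that copy DNA and repair it, out of 8545 genes measured in 2 glioma cell lines treated with siRNAs against PARK2. They were chosen by symbol alone: MCM2 to MCM9, the ORC, RFC, RPA, POLA, POLD, POLE and PRIM families, PCNA, FEN1 and LIG1, and symbols that begin with RAD and a digit, XRCC, FANC, BRCA, MSH or ERCC. Each gene was read from its brightest probe set over all arrays. RNA was measured on 12 Affymetrix arrays in 6 groups of 2. SNB19 cells carried a scramble siRNA, PARK2 siRNA1 or PARK2 siRNA2, and SF539 cells carried the same 3 reagents. All groups, the scramble controls included, went through lipid transfection and were collected 48 h later, and no untransfected cells were among the samples. PARK2 encodes parkin, a ubiquitin ligase. The level of PARK2 is not analysed here, so the depth of the knockdown was not checked.

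DNA replication begins where the origin recognition complex loads the MCM helicase onto chromatin. Once the helicase opens the helix, RPA coats the single strands, polymerase alpha with primase lays down primers, and the clamp loader RFC places the ring PCNA that holds polymerases delta and epsilon on the template. Many of these genes are transcribed as cells enter S phase, under E2F factors. Repair enzymes share parts of this machinery: MutS proteins read mismatches, ERCC proteins cut out bulky lesions, the Ku proteins encoded by XRCC5 and XRCC6 hold broken ends, and RAD and FANC proteins act in recombination and in the repair of crosslinks.

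Levels are log2 values as deposited, and a change is a difference of group means on that scale. A gene was called where its limma adjusted p, over all 8545 genes, was under 0.05. No label states that the arrays of a pair came from separate cultures. The p-values therefore rest on the spread between arrays alone, which may be technical, and 2 arrays per group limit the precision. In RNA of whole cultures, a different share of cells in one state and a different amount of RNA per cell cannot be told apart. Of 9 astroglial markers measured, 8 lay above the median of all levels in every SNB19 group, but in SF539 only VIM and CD44 did. GFAP, the intermediate filament of astrocytes, averaged 6.90 in SNB19 scramble, 10.5 with siRNA1 and 10.5 with siRNA2, against 3.61 to 3.95 in the SF539 groups. None of 4 leukocyte and 5 endothelial markers lay above that median in either line, and of 6 epithelial and 5 neuronal markers only KRT18 and TUBB3 did in both. The SF539 siRNA2 pair stood apart: its arrays correlated at r = 0.99 across genes, which are not independent replicates, against 0.997 to 0.998 for the other pairs, and the members' median SD was 0.204 there against 0.0447 to 0.072 elsewhere.

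In SNB19, 19 of the 67 genes rose with PARK2 siRNA and 5 fell. MCM6 and POLD2 at least doubled in mean level, and POLA1 came close to doubling. RFC5 also doubled from its brightest probe set, but its other probe sets rose less. Subunits of the helicase, of RPA, of the clamp and its loader and of polymerases alpha, delta and epsilon were among the genes that rose. Of all genes 32.8% were called, 15.5% higher and 17.4% lower, against 35.8%, 28.4% and 7.46% of the members. Counts by role below stand against the same shares of all genes, and no role was tested against another or against the rest. The median change of the members was 0.14, against -0.01 over all genes, and single members ran from -0.76 to 1.26. Counted by array, 32 members had all 4 siRNA arrays above both scramble arrays, a pattern shown by 24.2% of all genes, and 13 had all 4 below, against 26.4% of all genes. Centring each array on its median shifted the median change of all genes to 0.09 and gave 26 members higher and 4 lower, with 35.4% of all genes called. Without SNB19 scramble replicate 2 fewer members and fewer of all genes were called. The median change was then 0.14 for the members and -0.0029 for all genes.

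**Figure D1:**
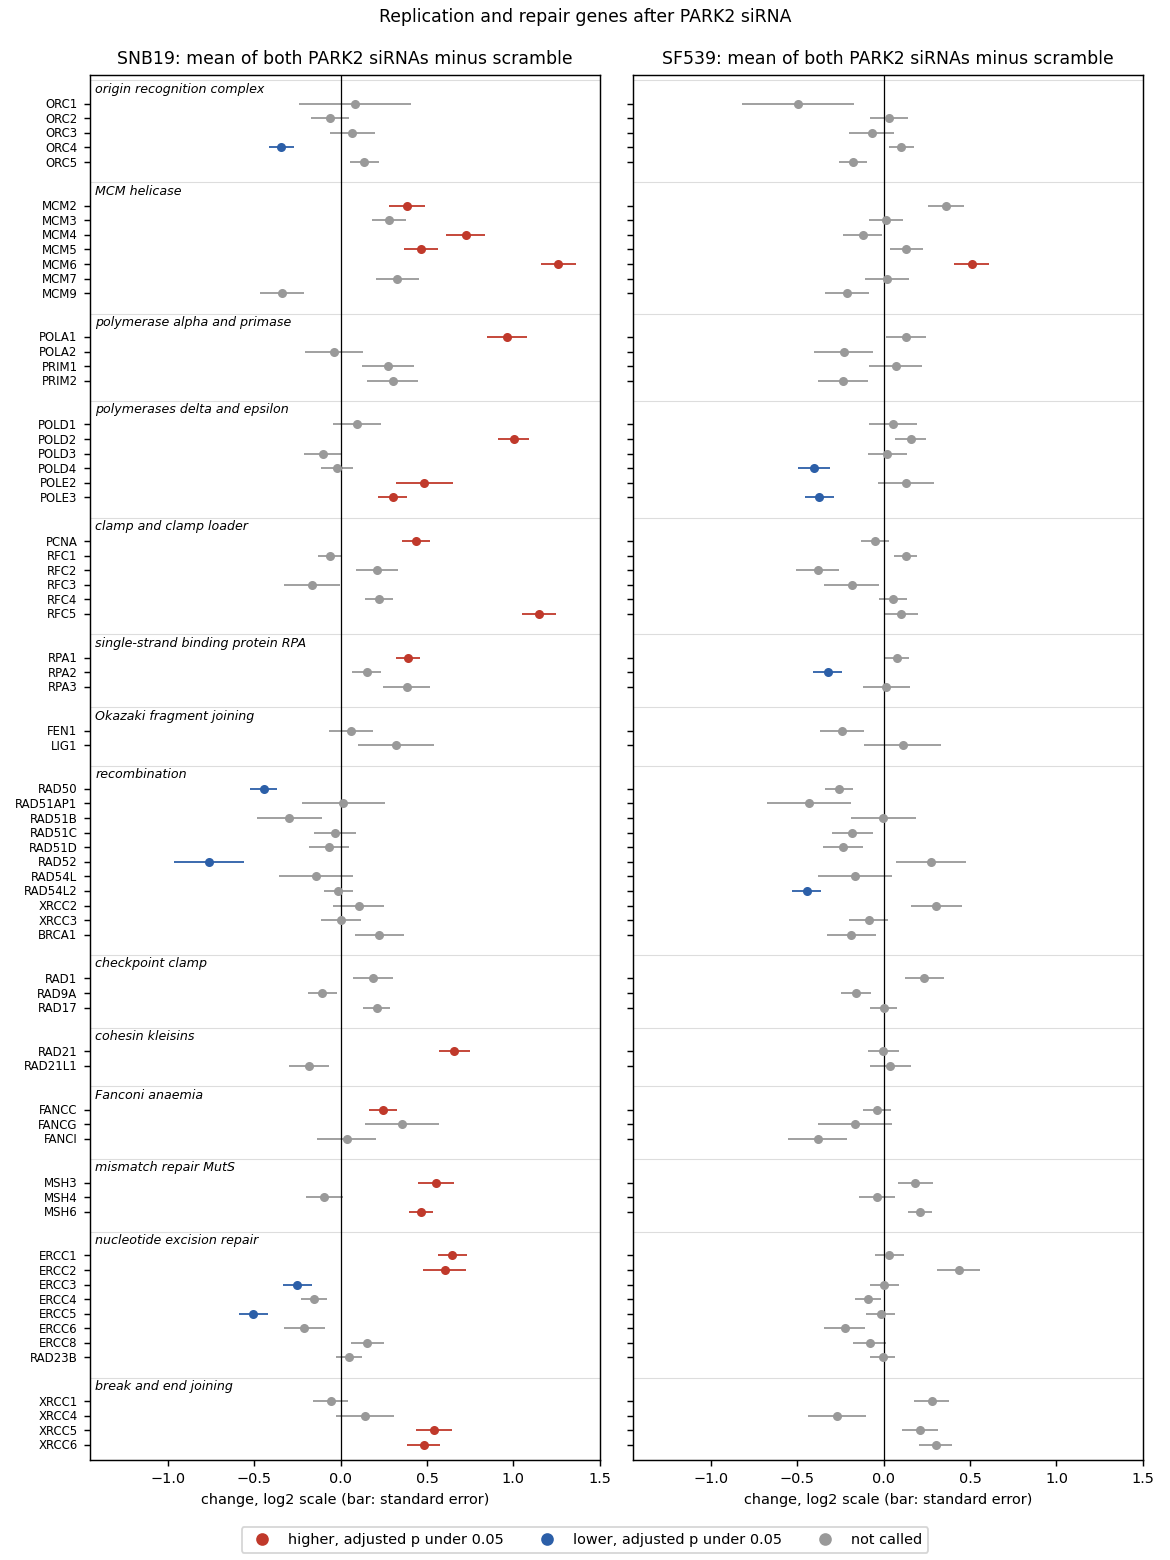
Change of each of the 67 genes with PARK2 siRNA (mean of both siRNAs minus scramble, log2 scale, bars are standard errors of the fit), grouped by role, for SNB19 on the left and SF539 on the right. Red genes were called higher and blue genes lower: 19 and 5 in SNB19, 1 and 4 in SF539.

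Origins are licensed by the origin recognition complex. Of 5 measured subunits, ORC4 was called in SNB19, and it fell by 0.34 ± 0.07 (SE; limma adjusted p = 0.00515). Its arrays read 10.00 and 10.13 with scramble, 9.69 and 9.76 with siRNA1, and 9.67 and 9.74 with siRNA2, so all siRNA arrays lay below both controls. The other 4 subunits, ORC1, ORC2, ORC3 and ORC5, had changes from -0.06 to 0.14. Without SNB19 scramble replicate 2 the call of ORC4 was lost (-0.28, limma adjusted p = 0.0685).

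The MCM helicase is a ring of 6 related subunits, MCM2 to MCM7, and 4 of them rose. MCM6 read 9.89 and 9.74 with scramble, 11.17 and 11.19 with siRNA1, and 11.02 and 10.92 with siRNA2. Every siRNA array was thus more than 1 log2 unit above both controls, and the mean rose by 1.26 ± 0.10, or 2.40-fold (limma adjusted p = 1.09e-05). MCM4 rose by 0.72 ± 0.11, from 8.30 and 8.26 to 9.10, 8.92, 8.95 and 9.04 (limma adjusted p = 0.000853), and the groups did not overlap. MCM5 rose by 0.47 ± 0.10 and MCM2 by 0.38 ± 0.10. Without SNB19 scramble replicate 2 the limma adjusted p was 0.0543 for MCM5 and 0.142 for MCM2. The call of MCM2 was also lost without SNB19 scramble replicate 1 (0.0524) and without SNB19 siRNA1 replicate 1 (0.0534). MCM3 and MCM7, the remaining subunits of the ring, differed by 0.28 ± 0.10 and 0.33 ± 0.12 and were not called. MCM9, a relative outside that ring which acts in repair, differed by -0.34 ± 0.13 and was not called either.

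**Figure D2:**
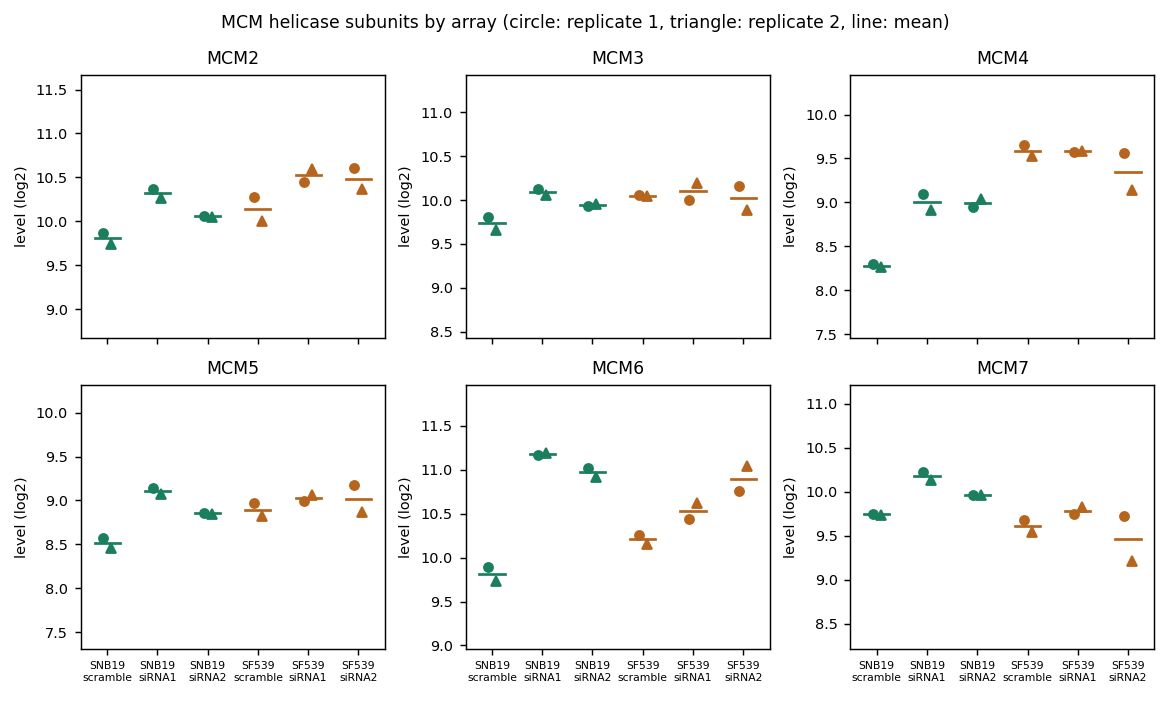
Level of the 6 subunits of the MCM ring on each array (log2, circles replicate 1, triangles replicate 2, lines group means). All 4 SNB19 siRNA arrays of MCM6 lie between 10.92 and 11.19, above both scramble arrays, and in SF539 the siRNA arrays lie between 10.44 and 11.04.

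Among the enzymes that start and extend strands, 4 genes rose in SNB19. POLA1, the catalytic subunit of polymerase alpha, read 7.94 and 7.90 with scramble, 8.96 and 9.03 with siRNA1, and 8.85 and 8.70 with siRNA2. It rose by 0.96 ± 0.12, or 1.95-fold (limma adjusted p = 0.000164), while its partner POLA2 and the primase subunits PRIM1 and PRIM2 had changes of -0.04, 0.27 and 0.30 and were not called. POLD2, an accessory subunit of polymerase delta, read 7.97 and 7.76 with scramble and 8.94, 8.78, 8.81 and 8.95 with the siRNAs. That is a rise of 1.00 ± 0.09, or 2.00-fold (limma adjusted p = 2.26e-05), with no overlap. POLD1, POLD3 and POLD4 had changes between -0.10 and 0.10 and were not called. In polymerase epsilon, POLE2 rose by 0.49 ± 0.16 and POLE3, a histone-fold subunit, by 0.30 ± 0.08. The limma adjusted p of POLE2 was 0.0467, and it was 0.127 or 0.224 without SNB19 scramble replicate 1 or 2. That call was also lost without any 1 of the SNB19 siRNA, SF539 scramble or SF539 siRNA1 arrays (0.0625 to 0.104). For POLE3 it was 0.0194, and 0.102 or 0.0989 without the SNB19 scramble arrays, 0.0523 without SNB19 siRNA1 replicate 2 and 0.0600 without siRNA2 replicate 2.

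The clamp and its loader were carried by 2 of 6 genes. RFC5, a loader subunit, read 8.98 and 9.25 with scramble, 9.94 and 10.08 with siRNA1, and 10.52 and 10.50 with siRNA2. It rose by 1.15 ± 0.10, or 2.22-fold (limma adjusted p = 1.95e-05). RFC5 has 3 probe sets. The others gave 0.43 and 0.30, and the mean of all of them gave 0.63. PCNA read 11.49 and 11.56 with scramble and 11.95, 11.97, 11.95 and 11.98 with the siRNAs, a rise of 0.44 ± 0.08 (limma adjusted p = 0.00232). The loader subunits RFC1, RFC2, RFC3 and RFC4 had changes between -0.17 and 0.22 and were not called. RPA1, the large subunit of the single-strand binding protein, rose by 0.39 ± 0.07, and RPA2 and RPA3 were not called at 0.15 and 0.38. FEN1 and LIG1, which trim and seal Okazaki fragments, had changes of 0.06 and 0.32 and were not called.

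**Figure D3:**
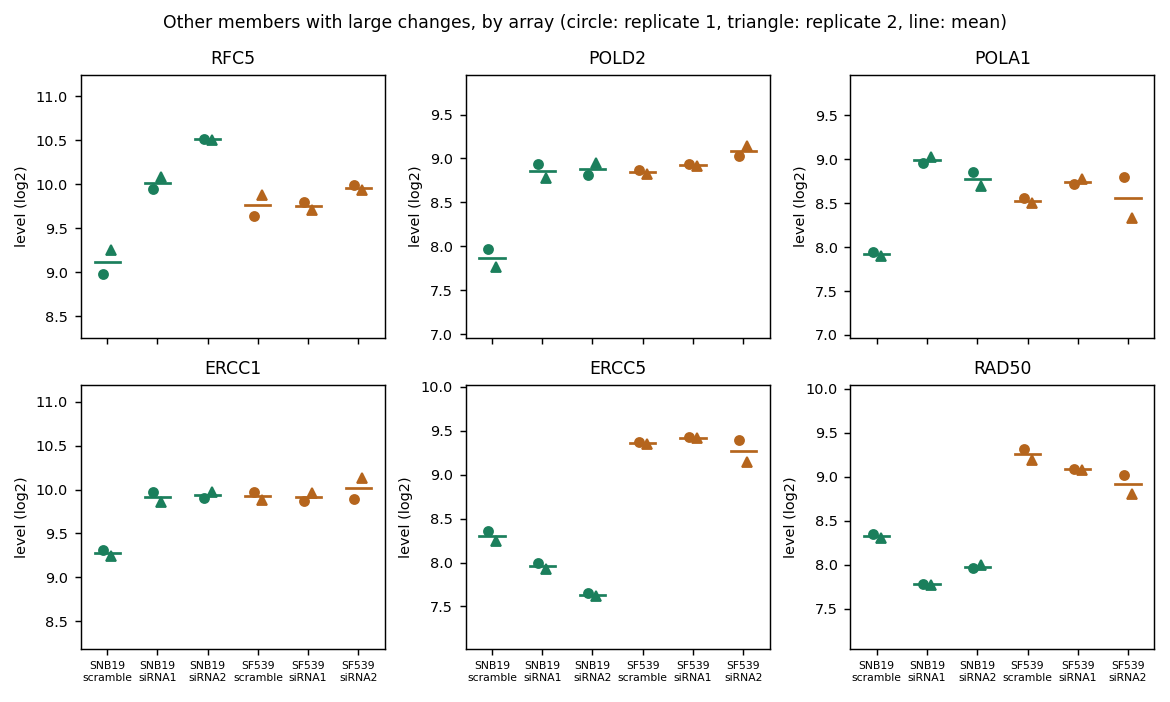
Level on each array (log2, circles replicate 1, triangles replicate 2, lines group means) of RFC5, POLD2, POLA1 and ERCC1, which were higher with PARK2 siRNA in SNB19, and of ERCC5 and RAD50, which were lower. In SNB19 the siRNA arrays of each gene lie on one side of both scramble arrays.

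In excision repair the calls ran both ways. ERCC1, a subunit of a nuclease that cuts beside lesions, rose by 0.65 ± 0.09 in SNB19 (limma adjusted p = 0.000308), from 9.31 and 9.25 to 9.97, 9.86, 9.91 and 9.97. ERCC2, a helicase of the factor TFIIH, rose by 0.60 ± 0.13. Its call was lost without SNB19 scramble replicate 2 (0.46, limma adjusted p = 0.0653). ERCC5, the nuclease that cuts on the other side of the lesion, read 8.36 and 8.25 with scramble, 7.99 and 7.93 with siRNA1, and 7.66 and 7.62 with siRNA2. It fell by 0.51 ± 0.08 (limma adjusted p = 0.00118), with every siRNA array below both controls. ERCC3, the other TFIIH helicase, fell by 0.25 ± 0.08 (limma adjusted p = 0.0412), a call lost on median centring (-0.15, limma adjusted p = 0.193), on quantile normalization (0.0509) and without either SNB19 scramble array (0.165 and 0.159). It was also lost without any 1 of the SNB19 siRNA, SF539 scramble or SF539 siRNA1 arrays (0.0503 to 0.112). ERCC4, ERCC6, ERCC8 and RAD23B were not called. For RAD23B the probe set used gave 0.05, and its others gave 0.47 and -0.02.

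Among the genes chosen by symbol, those of mismatch repair and end joining that were called in SNB19 all rose. This did not hold for their partners outside that choice. There MLH3 and LIG4 were called lower in SNB19 (-0.32 and -0.35), and PMS1 and PRKDC higher (0.53 and 2.20). The call of LIG4 was lost in 7 of 19 alternative runs. MSH3 and MSH6, which pair with a common partner to recognise mismatches, rose by 0.55 ± 0.10 and 0.46 ± 0.07. MSH4, a meiotic relative, averaged 2.58 to 2.68 over the groups, below the lower quartile of all levels (4.35), and was not called. XRCC5 and XRCC6, the Ku subunits, rose by 0.54 ± 0.10 and 0.48 ± 0.10, while XRCC4 and XRCC1 were not called at 0.14 and -0.06. The other probe sets of XRCC4 gave 0.51, 0.29 and 0.27. RAD21, the kleisin subunit of cohesin, rose by 0.66 ± 0.09, but its other probe set gave 0.04, and with the mean of its probe sets the call was lost (0.35, limma adjusted p = 0.0868). FANCC, of the Fanconi anaemia core complex, rose by 0.24 ± 0.08 (limma adjusted p = 0.0435), and this call was lost without either SNB19 scramble array, at 0.0510 without replicate 1 and 0.323 without replicate 2. It was lost too with a replicate block (0.0737) and without any 1 of the SNB19 siRNA, SF539 scramble or SF539 siRNA1 arrays (0.0541 to 0.103).

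Of 11 recombination genes 2 were called lower and 9 were not called, in a comparison where 17.4% of all genes were called lower. RAD50, an ATPase that tethers broken ends, read 8.34 and 8.30 with scramble, 7.78 and 7.77 with siRNA1, and 7.96 and 8.0 with siRNA2, and fell by 0.45 ± 0.08 (limma adjusted p = 0.00194). Its other probe set gave -0.48. RAD52, which anneals single strands, read 4.83 and 4.81 with scramble, 4.50 and 3.87 with siRNA1, and 4.05 and 3.82 with siRNA2. It fell by 0.76 ± 0.20 (limma adjusted p = 0.0167), but its level lies near the lower quartile of all levels, its other probe sets gave -0.43 and 0.46, and the call was lost without either scramble array (limma adjusted p = 0.0984 without replicate 1 and 0.0827 without replicate 2) and without siRNA2 replicate 2 (0.0514). The other 9 genes, RAD51AP1, RAD51B, RAD51C, RAD51D, RAD54L, RAD54L2, XRCC2, XRCC3 and BRCA1, were not called, nor were RAD1, RAD9A and RAD17 of the checkpoint clamp and its loader.

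The promoters of genes that rose are shown because several held a sequence recognised by E2F. RefSeq promoter windows (GRCh38.p14, 250 bases before to 50 after each start) were matched for 59 of the 67 genes. Windows were searched on both strands for the octamers TTTCCCGC, TTTCGCGC, TTTGGCGC and TTTGCCGC, which can overlap each other, and a gene with several starts counted if any window held a match. The lines below give 5′ to 3′ on the gene's strand, with the matches, or runs of overlapping matches, in capitals. MCM6 (chr2:135876504-135876613, minus strand) holds 2 such runs, and POLA1 (chrX:24693753-24693812, plus strand), MSH3 (chr5:80654517-80654576, plus strand) and PCNA (chr20:5126653-5126712, minus strand) hold 1 each. POLA2 (chr11:65261877-65261936, plus strand) and RFC3 (chr13:33818064-33818123, plus strand) hold a match and were not called in SNB19.
MCM6: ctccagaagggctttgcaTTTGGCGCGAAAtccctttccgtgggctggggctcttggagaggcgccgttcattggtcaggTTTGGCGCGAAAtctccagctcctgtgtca
POLA1: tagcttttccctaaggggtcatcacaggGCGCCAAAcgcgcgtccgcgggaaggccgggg
MSH3: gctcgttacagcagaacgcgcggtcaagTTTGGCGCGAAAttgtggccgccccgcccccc
PCNA: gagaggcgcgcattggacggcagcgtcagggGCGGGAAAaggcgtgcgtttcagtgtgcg
POLA2: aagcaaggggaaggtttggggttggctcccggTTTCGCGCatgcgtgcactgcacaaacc
RFC3: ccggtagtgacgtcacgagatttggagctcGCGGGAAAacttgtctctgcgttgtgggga

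A match was found in 16 of the 59 genes (27.1%), against 6.16% of 6831 genes measured on the arrays and 3.99% of all 27305 genes of the promoter table. By call in SNB19 it was found in 9 of 15 genes that rose (60.0%), in 0 of 5 that fell and in 7 of 39 that were not called (17.9%). The 9 were FANCC, MCM2, MCM6, MSH3, MSH6, PCNA, POLA1, POLE2 and XRCC6. The calls of FANCC, MCM2 and POLE2 were lost in several alternative runs, so this split depends on the threshold. FANCC changed by 0.24. The 7 not called changed by 0.33 (MCM7), 0.32 (LIG1), 0.28 (MCM3), 0.10 (XRCC2), 0.07 (ORC3), -0.04 (POLA2) and -0.17 (RFC3). The measured genes outside the members were not split by call. The box CCAAT was found in 10 of the 15, 0 of the 5 and 20 of the 39, against 44.4% of the measured genes. These counts describe letters in a window and are no evidence of binding. RFC5, POLD2 and ERCC1, with some of the highest changes, had a window without an E2F match, and MCM4, RAD21, MCM5, XRCC5, RPA2, RPA3, POLD3 and FANCI were not matched.

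Genes of the same pathways outside the symbol rule were taken from lists chosen with earlier results of these data known. Their counts in SNB19 stand against 15.5% of all genes called higher and 17.4% lower, and no list was tested. Of 17 measured replication factors, 5 rose and none fell in SNB19, with the highest changes for GINS1 (0.84 ± 0.19), a subunit of the helicase's GINS partner, WDHD1 (0.59 ± 0.13) and DNA2 (0.55 ± 0.16). Of 17 E2F and S phase regulators 9 rose and none fell, led by CCNE2 (0.92 ± 0.11), RBL1 (0.86 ± 0.10) and RB1 (0.62 ± 0.12). The median changes of these lists were 0.21 and 0.38. The E2F list mixes genes that promote S phase, such as CCNE2, with genes that restrain it, such as RB1, RBL1, RBL2 and E2F6. Its counts therefore give no direction of E2F activity. Of 9 genes of nucleotide supply 3 rose, RRM1 (0.69 ± 0.14), DUT (0.64 ± 0.09) and DCK (0.53 ± 0.15), and ADA fell by 0.33 ± 0.10.

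Among damage signalling genes 5 of 16 rose and 1 fell, where 32.8% of all genes were called in either direction, with MRE11 (0.69 ± 0.13), ATM (0.48 ± 0.09) and ATR (0.46 ± 0.09) among those that rose. MRE11 encodes the nuclease partner of the RAD50 protein, whose gene fell. TP53BP1 fell by 0.35 ± 0.09, but the mean of its probe sets gave 0.037. The partners in excision, mismatch repair and end joining split: 9 of 26 rose and 7 fell, with a median change of -0.13. PRKDC, the kinase that Ku recruits to broken ends, read 7.94 and 8.09 with scramble, 10.10 and 10.21 with siRNA1, and 10.18 and 10.39 with siRNA2, a rise of 2.20 ± 0.10 or 4.61-fold (limma adjusted p = 1.66e-07). The mean of its probe sets gave 1.22. CETN2 rose by 0.89 ± 0.09 and UNG by 0.72 ± 0.11. DDB2, a sensor of ultraviolet lesions, fell by 0.77 ± 0.19, and CDK7 and NTHL1 fell by 0.47 each. Of 2 translesion genes limma called 0, though both had an unadjusted p under 0.05.

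In SF539, 1 of 17 replication factors, 1 of 9 genes of nucleotide supply, 2 of 17 E2F and S phase regulators and 2 of 26 excision, mismatch and end joining partners were called, all higher, against 9.82% of all genes called and 5.8% called higher. CDC7, a kinase that fires origins, rose by 0.39 ± 0.09, ADA by 0.96 ± 0.10, E2F6 and RBL2 by 0.32 and 0.42, TDG by 0.81 ± 0.18 and PRKDC by 0.47 ± 0.10. The call of PRKDC was lost with the 6 SF539 arrays alone, with array weights, when its probe sets were averaged (0.25), and without SF539 scramble replicate 1 or siRNA1 replicate 1. In SF539 limma called 0 of 16 damage signalling and 0 of 2 translesion genes, of which 2 and 0 had an unadjusted p under 0.05.

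Other groups of genes moved with these comparisons in SNB19. All 10 measured interferon-stimulated genes fell, with a median change of -6.10, and their mean level per array was 11.5 with scramble, 5.15 to 5.17 with siRNA1 and 5.42 to 5.76 with siRNA2. In SF539 that mean level ran from 9.77 to 10.2 over all arrays and 2 of the 10 genes fell. Of 9 astroglial markers 3 rose and 1 fell in SNB19, with mean levels of 9.33 to 9.43 with scramble and 9.95 to 10.2 with the siRNAs. Of 5 endothelial markers 2 rose, with mean levels of 4.49 to 4.65 with scramble and 4.82 to 5.07 with the siRNAs. Of 5 neuronal and of 6 epithelial markers 1 rose and 2 fell in each list. Neuronal mean levels were 7.08 to 7.22 with scramble and 6.84 to 6.95 with the siRNAs, and epithelial ones 5.38 to 5.43 and 5.31 to 5.55. Limma called 0 of 4 leukocyte markers, whose mean levels were 3.67 to 3.73 and 3.57 to 3.69. These counts stand against 32.8% of all genes called. The part of any of these in the changes of replication and repair genes was not tested.

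The siRNAs against PARK2 each gave similar counts in SNB19 but share their scramble arrays. With siRNA1, 16 members were higher and 3 lower (28.4% called, against 26.1% of all genes, 12.4% higher and 13.7% lower). With siRNA2, 17 were higher and 4 lower (31.3%, against 29.7% of all genes, 13.9% higher and 15.8% lower). Without either SF539 siRNA2 array the fit called more members and more of all genes for siRNA1, with the same median change of the members (0.20). Median centring gave 25 and 1 for siRNA1 (27.9% of all genes called), and 24 and 2 for siRNA2. MCM6 and POLA1 had changes of 1.37 and 1.07 with siRNA1 and of 1.15 and 0.85 with siRNA2, and RFC5 had changes of 0.90 and 1.40. RAD50 differed from scramble by -0.55 and -0.35, and ERCC5 by -0.34 and -0.67. For siRNA2 fewer members and fewer of all genes were called without SNB19 scramble replicate 2, siRNA2 replicate 1 or siRNA2 replicate 2. The members' median changes were then 0.10, 0.12 and 0.11, against 0.15 in the full fit. Tested directly, siRNA2 against siRNA1, 1 member differed, RFC5, higher with siRNA2 by 0.50 ± 0.11 (limma adjusted p = 0.0335). Of all genes 6.06% were called in that comparison, 3.08% higher and 2.98% lower. The mean of its probe sets gave a difference of 0.21 for RFC5 (limma adjusted p = 0.466), and the call was also lost without any one of the SNB19 siRNA arrays, with limma adjusted p between 0.101 and 0.243, and at 0.0559 without either SF539 siRNA1 array. Without either SF539 siRNA2 array more members and more of all genes were called, with the same median difference of the members (-0.02).

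In SF539, 1 of the 67 genes rose with PARK2 siRNA and 4 fell, against 9.82% of all genes called, 5.8% higher and 4.01% lower. The median change was -0.0017, against -0.02 over all genes, and members ran from -0.50 to 0.51. MCM6, which also rose in SNB19, read 10.26 and 10.16 with scramble, 10.44 and 10.62 with siRNA1, and 10.76 and 11.04 with siRNA2. It rose by 0.51 ± 0.10, or 1.42-fold (limma adjusted p = 0.0126), and every siRNA array lay above both controls. In all, 6 members had all siRNA arrays above both controls and 10 had all below, patterns shown by 13.7% and 14.5% of all genes.

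The genes that fell in SF539 were RAD54L2, POLD4, POLE3 and RPA2. RAD54L2, a chromatin remodeller related to RAD54, read 7.17 and 7.01 with scramble, 6.77 and 6.82 with siRNA1, and 6.60 and 6.38 with siRNA2, and fell by 0.45 ± 0.08 (limma adjusted p = 0.0106). POLD4, the smallest polymerase delta subunit, read 7.37 and 7.15, then 6.75 and 6.97, then 6.83 and 6.88, and fell by 0.40 ± 0.09 (limma adjusted p = 0.0247). In both genes no siRNA array reached the lower control. POLE3 fell by 0.37 ± 0.08, from 10.11 and 10.09 to 9.69, 9.70, 9.89 and 9.62, and RPA2 fell by 0.32 ± 0.08, from 9.83 and 9.79 to 9.62, 9.61, 9.47 and 9.24. In SNB19 POLE3 had risen.

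All 5 SF539 calls rested on the choice of arrays. Fitted on the 6 SF539 arrays alone, they had limma adjusted p between 0.104 (MCM6) and 0.173 (RPA2), and without SF539 scramble replicate 1 between 0.0545 (MCM6) and 0.195 (POLD4). Without either SF539 siRNA1 array fewer members and fewer of all genes were called. Leaving out SF539 siRNA2 replicate 1 gave 2 higher and 21 lower members, while leaving out siRNA2 replicate 2 gave 9 higher and 4 lower, with 23.1% and 16.1% of all genes called.

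With siRNA1 alone, 0 of the 67 genes were called in SF539 by limma, against 2.73% of all genes (1.61% higher and 1.11% lower), and 10 had an unadjusted p under 0.05. With array weights 2 were called, against 5.68% of all genes. Without either SF539 siRNA2 array more members and more of all genes were called, with the same median change of the members (0.05). With siRNA2 alone, MCM6 rose by 0.69 ± 0.11 and 6 genes fell (10.4% called, against 15.2% of all genes, 8.66% higher and 6.5% lower), with RAD54L2 (-0.60) and RFC2 (-0.49) the lowest among those called. That count moved both ways when single arrays were left out, and the share of all genes called moved with it. The median change with siRNA2 was -0.08 for the members and -0.03 for all genes. Without SF539 siRNA2 replicate 1 these medians were -0.26 and -0.04, and without SF539 scramble replicate 1 they were -0.06 and -0.0086. Between siRNA2 and siRNA1, 0 members were called by limma, against 2.72% of all genes (1.84% higher and 0.878% lower), and 13 had an unadjusted p under 0.05. Without SF539 siRNA2 replicate 1 more members and more of all genes were called. The median difference was then -0.26 for the members and -0.03 for all genes, where the full fit gave -0.17 and -0.03.

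The SF539 siRNA2 arrays differed from each other in these genes. Replicate 2 was lower than replicate 1 in 56 of the 67 (83.6%), against 50.5% of all genes, with a median difference of -0.28 against -0.0033. ORC1 read 7.06 and 5.53, and RAD51AP1, which assists strand invasion, read 9.98 and 8.82. LIG1, RAD54L and FANCG differed by -1.04, -1.01 and -0.996. All 11 recombination genes, all 6 of the clamp and loader and all 5 of the origin recognition complex were lower in replicate 2, as were 16 of 17 replication factors (median -0.52) and 8 of 9 genes of nucleotide supply (median -0.67). So were all 4 genes of polymerase alpha and primase (median -0.59), all 3 Fanconi anaemia genes (median -0.77) and all 4 of break and end joining (median -0.35). Of 16 damage signalling genes 14 were lower (median -0.29). Some sets shifted less. Lower in replicate 2 were 4 of 8 excision repair genes (median -0.05), 15 of 26 excision, mismatch and end joining partners (median -0.045) and 0 of 2 cohesin kleisins. Of 17 E2F and S phase regulators 13 were lower (median -0.10). MCM6 and ERCC1 were higher in replicate 2, by 0.29 and 0.23. In the other groups the members' median difference between replicates lay between -0.08 and 0.01. SF539 scramble also had replicate 2 lower in 53 of the 67 (79.1%, against 62.8% of all genes). SNB19 scramble had it lower in 45 (67.2%, against 51.2% of all genes). In the remaining groups 44.8% to 64.2% of the members were lower in replicate 2, against 45% to 58.7% of all genes.

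**Figure D4:**
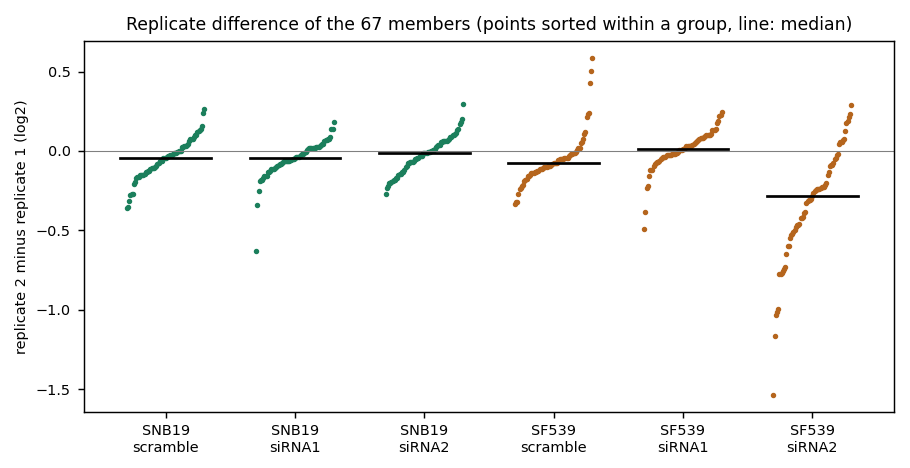
Replicate 2 minus replicate 1 (log2) for each of the 67 genes in each group, sorted within a group, with a line at the median. The SF539 siRNA2 group reaches -1.54 (ORC1) and has its median at -0.28, while the other medians lie between -0.08 and 0.01.

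The responses of the lines were compared directly, as the SF539 change minus the SNB19 change. For 15 members the responses differed, 12 with a lower and 3 with a higher value in SF539 (22.4% called, against 19.1% of all genes, 10.8% higher and 8.3% lower), and the median difference was -0.21, against -0.0063 over all genes. With each array centred on its median, the median over all genes was -0.17, with 0 higher and 24 lower members and 25.5% of all genes called. From its brightest probe set RFC5 had the lowest value, -1.05 ± 0.14 (limma adjusted p = 0.000756): in SF539 it read 9.64 and 9.88 with scramble, 9.80 and 9.71 with siRNA1, and 9.99 and 9.94 with siRNA2, a change of 0.10. Its other probe sets changed by 0.43 and 0.30 in SNB19 and by -0.05 and -0.35 in SF539, so this rank depends on the probe set. POLD2 differed by -0.84 ± 0.13, with SF539 values of 8.87 and 8.83, then 8.94 and 8.91, then 9.02 and 9.15. MCM4 differed by -0.84 ± 0.16, with SF539 values of 9.65 and 9.53, then 9.58 and 9.59, then 9.56 and 9.14. In POLD2, MCM4 and ERCC1 the SNB19 scramble level lay under that of SF539 by 0.98, 1.31 and 0.65. The SNB19 siRNA arrays of these genes came nearer to the SF539 range. In RFC5, POLA1, MCM6 and PCNA the SNB19 siRNA means instead lay above every SF539 group mean. The scramble arrays enter both comparisons with opposite sign, so a low SNB19 scramble level by itself lowers the difference in response.

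POLA1 differed by -0.84 ± 0.16 and MCM6 by -0.75 ± 0.14. POLE3 (-0.68), RAD21 (-0.66), ERCC1 (-0.61), RFC2 (-0.59), PCNA (-0.49), RPA2 (-0.48) and RAD54L2 (-0.43) followed. The genes with a higher value in SF539 each fell in SNB19: RAD52 (1.03 ± 0.29), ERCC5 (0.49 ± 0.12) and ORC4 (0.45 ± 0.10). ERCC5 read 9.38 and 9.35 with scramble in SF539, 9.43 and 9.42 with siRNA1, and 9.40 and 9.14 with siRNA2. RFC5, MCM4, POLD2, POLA1, MCM6, POLE3 and ERCC1 kept the call in every alternative run, while the other 8 lost it in at least 1. For RAD21 the mean of probe sets gave -0.11 (limma adjusted p = 0.759). Without SF539 siRNA2 replicate 1 more members and more of all genes were called, and the median difference was -0.31, against -0.01 over all genes.

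With the scramble siRNA alone, 31 of the 67 genes differed between the lines, 25 higher in SF539 and 6 lower (46.3%, against 49.3% of all genes, 24.6% higher and 24.7% lower). Centring gave 36 and 2, with the median of all genes moved from 0.04 to 0.21. Without SNB19 scramble replicate 2 fewer members and fewer of all genes were called. The median difference was then 0.17 for the members and 0.05 for all genes. All 4 genes of polymerase alpha and primase were called higher in SF539. For POLA2 (0.55 ± 0.20) the call was lost without any 1 of the SNB19, SF539 scramble or SF539 siRNA1 arrays (limma adjusted p = 0.0544 to 0.134). PRIM1, the catalytic primase subunit, read 7.62 and 7.70 in SNB19 and 9.68 and 9.61 in SF539, a difference of 1.98 ± 0.17 or 3.96-fold (limma adjusted p = 7.9e-06). PRIM2, its large subunit, read 6.43 and 6.12 against 7.74 and 7.98, a difference of 1.59 ± 0.17 (limma adjusted p = 2.94e-05). PRIM2 has a near-identical pseudogene, so its value is uncertain. PRIM1 and PRIM2 were not called in either line with PARK2 siRNA.

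Further genes stood higher in SF539 at several steps. MCM4 differed by 1.31 ± 0.13 and was joined by MCM2, MCM3, MCM5 and MCM6 at 0.31 to 0.39. Without SNB19 scramble replicate 2 those 4 calls were lost (limma adjusted p = 0.185, 0.212, 0.105 and 0.112), as they were without SF539 scramble replicate 1 (0.261, 0.124, 0.109 and 0.0909). MCM2 and MCM3 also lost theirs without any 1 of the other SNB19 arrays, and MCM3 without SF539 scramble replicate 2. RPA3, the smallest RPA subunit, read 10.41 and 10.48 in SNB19 and 11.59 and 11.54 in SF539, a difference of 1.12 ± 0.16. ERCC5 (1.06), POLD2 (0.98), RAD50 (0.93) and FANCG (0.87) followed. FANCG lost its call without SNB19 scramble replicate 2 (0.82) and without SF539 scramble replicate 1 (0.76). RAD21 was higher by 0.57 from its brightest probe set, but the mean of its probe sets gave -0.0079 (limma adjusted p = 0.974).

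Lower in SF539 were MCM9, XRCC2, ERCC8, RFC2, RFC1 and ORC4. MCM9 read 6.40 and 6.54 in SNB19 and 5.52 and 5.64 in SF539, a difference of -0.88 ± 0.15 (limma adjusted p = 0.000688). XRCC2, which acts in recombination, read 6.35 and 6.45 against 5.53 and 6.11, and differed by -0.58 ± 0.17. ERCC8, a ubiquitin ligase subunit of transcription-coupled repair, read 7.91 and 8.03 against 7.64 and 7.40 (-0.45 ± 0.11), and RFC2 read 9.40 and 9.26 against 9.01 and 8.83 (-0.41 ± 0.14). Of these 6, MCM9 kept its call in every alternative run and the others lost theirs in at least 1. XRCC2 lost it on quantile normalization, on median centring and without either SNB19 scramble array or SF539 scramble replicate 1, ERCC8 without SNB19 or SF539 scramble replicate 2, and RFC2 on median centring and without any 1 of the SNB19 arrays or SF539 scramble replicate 2. Of all 31 genes 15 kept the call in every alternative run, PRIM1, PRIM2, MCM4 and RPA3 among them.

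**Figure D5:**
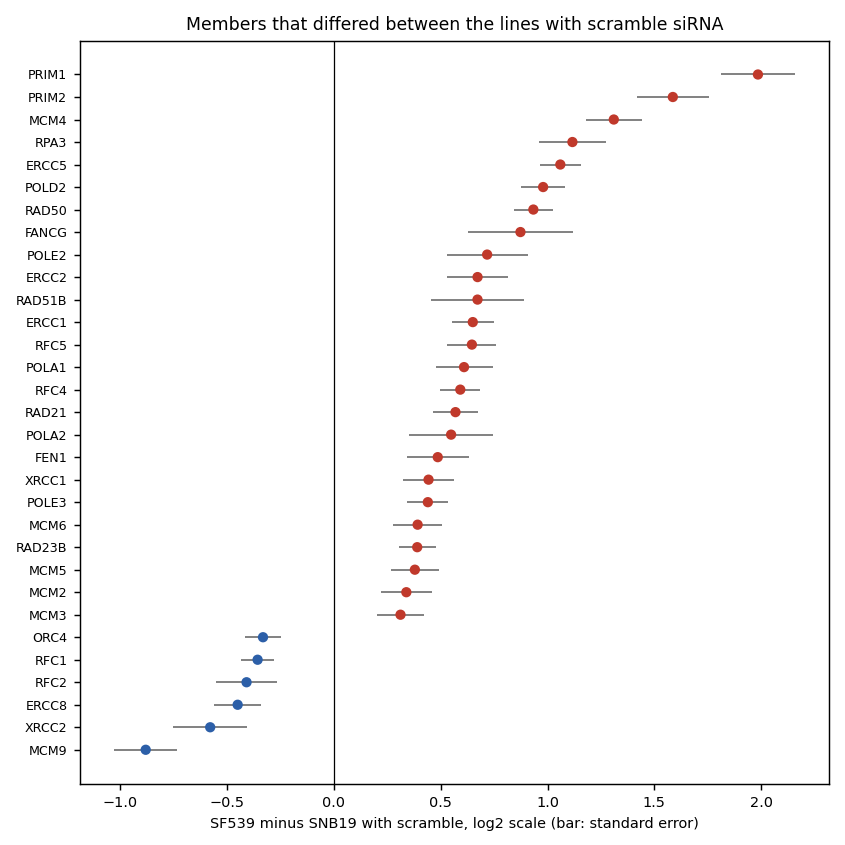
SF539 minus SNB19 with scramble siRNA (log2 scale, bars are standard errors of the fit) for the 31 genes called between the lines. Red genes were higher in SF539, PRIM1 by 1.98 and PRIM2 by 1.59, and blue genes lower, MCM9 by -0.88.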

How the data were processed

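The authors deposited 1 table of log2 values for 16376 probe sets on 12 Affymetrix arrays, from 2.01 to 14.1. Per the submitters' processing notes the tool was Partek. How background, normalization and summary were done is not given in the sources used here. A gene table gave 1 gene for 14038 probe sets, several for 792 and none for 1546; those with several named none. Symbols were updated through RefSeq (GRCh38.p14) for 14028. The brightest probe set stood for each of 8545 genes, and the 67 members had 104 probe sets. Of 27 members with several probe sets, these differed in the sign of the change in 8 in SNB19 and 11 in SF539.

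All 12 arrays entered 1 linear model of 6 groups in limma 3.58.1 (R 4.3.3; lmFit and eBayes, two-sided, Benjamini-Hochberg over all genes, 0.05), with 6 residual and 3.65 prior degrees of freedom, for 10 comparisons. Errors are standard errors of the fit. On simulated data with 8545 genes the SNB19 test recovered 62.7% of 67 genes set to 1.5-fold and 92.5% of 67 set to 2-fold, with 5 false calls among 174. For SF539 these were 61.2% and 97%, with 13 false calls among 184. The simulated noise was independent between genes, with a spread per gene pooled over the groups. It therefore does not describe the wider SF539 siRNA2 pair (median SD over all genes 0.132, against 0.0616 to 0.0852 elsewhere). The members, roles and lists were chosen with earlier results of these data known. Every member could be named. Values per array were given for up to 4 called members with the largest changes per direction, and for MCM4, PCNA and ERCC1 in SNB19, ORC1 and RAD51AP1, and PRKDC, chosen after their values were seen. Results were recomputed with a replicate block, with the arrays of 1 line, quantile normalization, median centring, the dimmest 40% left out, the mean of probe sets, array weights and leaving out each array, when the lone partner is taken to vary as other groups do. Plots used matplotlib 3.10.9.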

Additional observations from a re-analysis of the deposited data

Results flagged for a closer look

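Each of 15 genes had a response to PARK2 siRNA that differed between the lines by the interaction term of the limma fit (SF539 change minus SNB19 change, adjusted over 8545 genes). The value was lower in SF539 for RFC5 (-1.05), MCM4 (-0.84), POLD2 (-0.84), POLA1 (-0.84), MCM6 (-0.75), POLE3 (-0.68), RAD21 (-0.66), ERCC1 (-0.61), RFC2 (-0.59), PCNA (-0.49), RPA2 (-0.48) and RAD54L2 (-0.43). It was higher for RAD52 (1.03), ERCC5 (0.49) and ORC4 (0.45). POLE3 was called in both lines, higher in SNB19 and lower in SF539, while MCM6 rose in both. No group of 4 or more arrays exists, so single arrays far from their group were not looked for by a test.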

How the results depend on the processing

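With 2 arrays a group, 14 of 24 calls in SNB19, 0 of 5 in SF539, 7 of 15 of the difference in response and 15 of 31 between the lines with scramble kept direction and threshold in every alternative. Samples with the same replicate number shared little deviation across genes (correlations from -0.18 to 0.11), which does not settle whether they were paired. With a replicate block, 23 members were called in SNB19, 3 in SF539 and 0 between the siRNAs in SNB19 (1 as reported). Of all genes 30.7%, 7.58% and 4.21% were called in these runs. With the 6 arrays of the line alone the counts were 0 for SF539 (5 as reported), 32 for SNB19 siRNA1 (19 as reported), 32 for SNB19 siRNA2 (21 as reported), 0 for SF539 siRNA2 (7 as reported) and 4 between the SNB19 siRNAs. In the same order, those fits called 1.93%, 37.5%, 40.1%, 3.6% and 13.1% of all genes. Array weights gave 3 for SF539, 34 for SNB19 siRNA1, 2 for SF539 siRNA1 (0 as reported), 2 for SF539 siRNA2 and 8 between the SNB19 siRNAs. The shares of all genes called with array weights were 6.82%, 39%, 5.68%, 4.1% and 16.7%. Leaving out dim genes gave 10 for SF539, 2 for SF539 siRNA1 and 3 between the SNB19 siRNAs, and the mean of probe sets gave 0 there. Those runs called 19.3%, 6.5%, 11.1% and 5.63% of all genes tested. Median centring gave 2 for SF539 siRNA1, 11 for SF539 siRNA2 and 24 for the difference in response, with 2.9%, 19.2% and 25.5% of all genes called. Why these counts moved was not tested. Reversed values were RAD21 between the lines (-0.0079) and TP53BP1 in SNB19 (0.037), both with the mean of probe sets. Leaving out 1 array in turn, the counts ran from 15 to 35 for SNB19, 13 to 29 for its siRNA1, 11 to 31 for its siRNA2 and 0 to 4 between them. They ran from 0 to 23 for SF539, 0 to 7 for its siRNA1, 2 to 32 for its siRNA2 and 0 to 32 between them. For the difference in response they ran from 10 to 39, and between the lines with scramble from 18 to 39. As arrays were left out, the share of all genes called moved too, so these ranges are not particular to the members. Changes of genes near background, such as RAD52, are bounded by it.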
